A study of Rattus norvegicus with 19 samples.

Results

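Levels of 38 cell cycle genes were compared in the renal cortex of streptozotocin-diabetic rats. They are 13 genes of G1 and S phase, the phases in which a cell commits to division and copies its DNA, and 25 genes of G2 and mitosis. Members were found by the gene name that the scanner files give to each probe outside the control spots. All 38 were on the array, with 57 probes, out of 36155 named genes. Probes had to exceed background clearly on 5 or more of the 19 arrays, and 35 members passed: 13 of 13 G1 and S phase genes and 22 of 25 G2 and mitosis genes, out of 24217 genes tested. Aurkb, Bub1b and Cenpf, measured on 1, 1 and 3 arrays, did not pass, and Pbk passed with 13 of 19 arrays.

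All rats were male Crl:CD (SD) animals. The 7 DKD+enarodustat rats received 65 mg/kg of streptozotocin intravenously and, from grouping 7 days later, enarodustat at 0.01% (w/w) of their feed. Enarodustat blocks the prolyl hydroxylase enzymes and so stabilises hypoxia-inducible factor. The 7 DKD rats received that dose of streptozotocin without enarodustat. The 5 Sham rats received vehicle in place of streptozotocin. Kidneys were collected 14 days after grouping, and RNA of each rat's cortex was hybridised to 1 single-colour array. Streptozotocin is given to rats to cause diabetes by loss of pancreatic beta cells. Of 19 injected rats 14 were used, divided so that glucose and weight were alike in both diabetic groups.

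Cyclins D and E drive a cell through G1, after which the E2F factors are released from the retinoblastoma protein and switch on the genes for DNA replication. The genes of G2 and mitosis are switched on later, by the B-Myb and FoxM1 complexes, and are held off in resting cells by the DREAM complex. Most tubular cells of an adult kidney are at rest, and their division is best known from repair after injury and from the early growth of the diabetic kidney.

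Levels are log2 signals relative to each array's 75th percentile, so that 0 is the signal at that percentile and a unit is a doubling. Probes well above background made up 54.4% to 62.9% of all probes in DKD+enarodustat, 54.7% to 67.2% in DKD and 61.0% to 66.8% in Sham. The arrays lay on 3 slides, each with all groups, and in 2 rows of the slides. All 7 DKD+enarodustat arrays lay in row 2 and all 5 Sham arrays in row 1, while DKD had replicates 2 and 4 in row 2 and the other 5 in row 1. Between DKD+enarodustat and Sham, group and slide row therefore cannot be told apart. The markers of proximal tubule (6), glomerulus (4) and distal nephron (4) that were looked up were all measured. Of the proximal tubule markers 5 fell and 1 rose in DKD+enarodustat against Sham, where 16% of all genes fell and 10% rose, and 4 fell and 1 rose in DKD against Sham, where 9.07% fell and 8.02% rose. Of the glomerular markers 2 fell, and of those of the distal nephron 1 rose and 1 fell, in each of these comparisons. In whole cortex, fewer cells of a type and less RNA per cell cannot be told apart.

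Promoters of 4 members are shown because genes of the 2 phases are known to be switched on through different promoter words. RefSeq windows of 300 bases on GRCr8, 250 before and 50 after the start of the gene, were at hand for 29 of the 38 members. Each was searched on both strands for the words TTTGAA (the cell cycle homology region, bound by DREAM), CCAAT (the box bound by NF-Y), TTCCCGC and TTGGCGC (both like E2F sites). CCAAT and TTGGCGC can share letters on opposite strands, as in GCGCCAAT. The 4 windows shown are those with the most kinds of word, taken in order of symbol, with the matches in capitals and the gene's strand read 5′ to 3′.
Cdk1, chr20:19265043-19265342, plus strand: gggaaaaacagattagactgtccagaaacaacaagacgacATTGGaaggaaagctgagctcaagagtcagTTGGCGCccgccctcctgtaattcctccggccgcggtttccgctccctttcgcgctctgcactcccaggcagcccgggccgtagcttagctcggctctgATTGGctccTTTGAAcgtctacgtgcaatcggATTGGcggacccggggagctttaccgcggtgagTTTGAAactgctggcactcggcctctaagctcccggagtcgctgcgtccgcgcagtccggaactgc
Ect2, chr2:111966577-111966876, minus strand: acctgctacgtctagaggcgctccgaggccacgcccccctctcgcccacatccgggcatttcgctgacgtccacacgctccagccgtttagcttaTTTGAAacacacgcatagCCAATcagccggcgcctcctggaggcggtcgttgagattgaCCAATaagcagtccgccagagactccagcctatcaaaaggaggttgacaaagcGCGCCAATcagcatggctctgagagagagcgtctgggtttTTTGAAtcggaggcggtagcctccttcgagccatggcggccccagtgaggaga
Kif23, chr8:71320535-71320834, minus strand: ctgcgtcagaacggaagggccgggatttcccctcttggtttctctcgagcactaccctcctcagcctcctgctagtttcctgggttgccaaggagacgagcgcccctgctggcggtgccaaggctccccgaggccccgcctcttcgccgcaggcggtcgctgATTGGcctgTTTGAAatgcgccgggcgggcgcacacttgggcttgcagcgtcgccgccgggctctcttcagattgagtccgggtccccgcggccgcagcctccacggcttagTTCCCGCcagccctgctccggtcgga
Mcm5, chr19:13488563-13488862, plus strand: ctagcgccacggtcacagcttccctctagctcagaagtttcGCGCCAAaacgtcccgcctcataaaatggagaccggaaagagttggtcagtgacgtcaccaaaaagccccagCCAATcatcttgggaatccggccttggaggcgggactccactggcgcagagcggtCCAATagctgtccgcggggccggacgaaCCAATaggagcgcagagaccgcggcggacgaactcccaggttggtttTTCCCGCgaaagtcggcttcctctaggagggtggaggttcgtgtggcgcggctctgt

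The word TTTGAA stood in 14 of 20 windows of G2 and mitosis genes, 70%, and in 1 of 9 windows of G1 and S phase genes, against 18.1% of all 27457 windows. CCAAT stood in 16 of the 20 (80%) and 5 of the 9 (55.6%), against 37.7% of all windows. Either word like an E2F site stood in 4 of the 20 (20%) and 5 of the 9 (55.6%), against 6.67% of all. Among the windows shown, TTTGAA is in those of the mitosis genes Cdk1, Ect2 and Kif23, and not in that of Mcm5. All 4 hold an E2F-like word, TTGGCGC in Cdk1 and Ect2, TTCCCGC in Kif23 and both in Mcm5. The choice of windows fixed this: each holds 3 of the 4 words, which cannot be met without an E2F-like word. A match is a description of these letters and not of binding in the kidney.

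**Figure D1:**
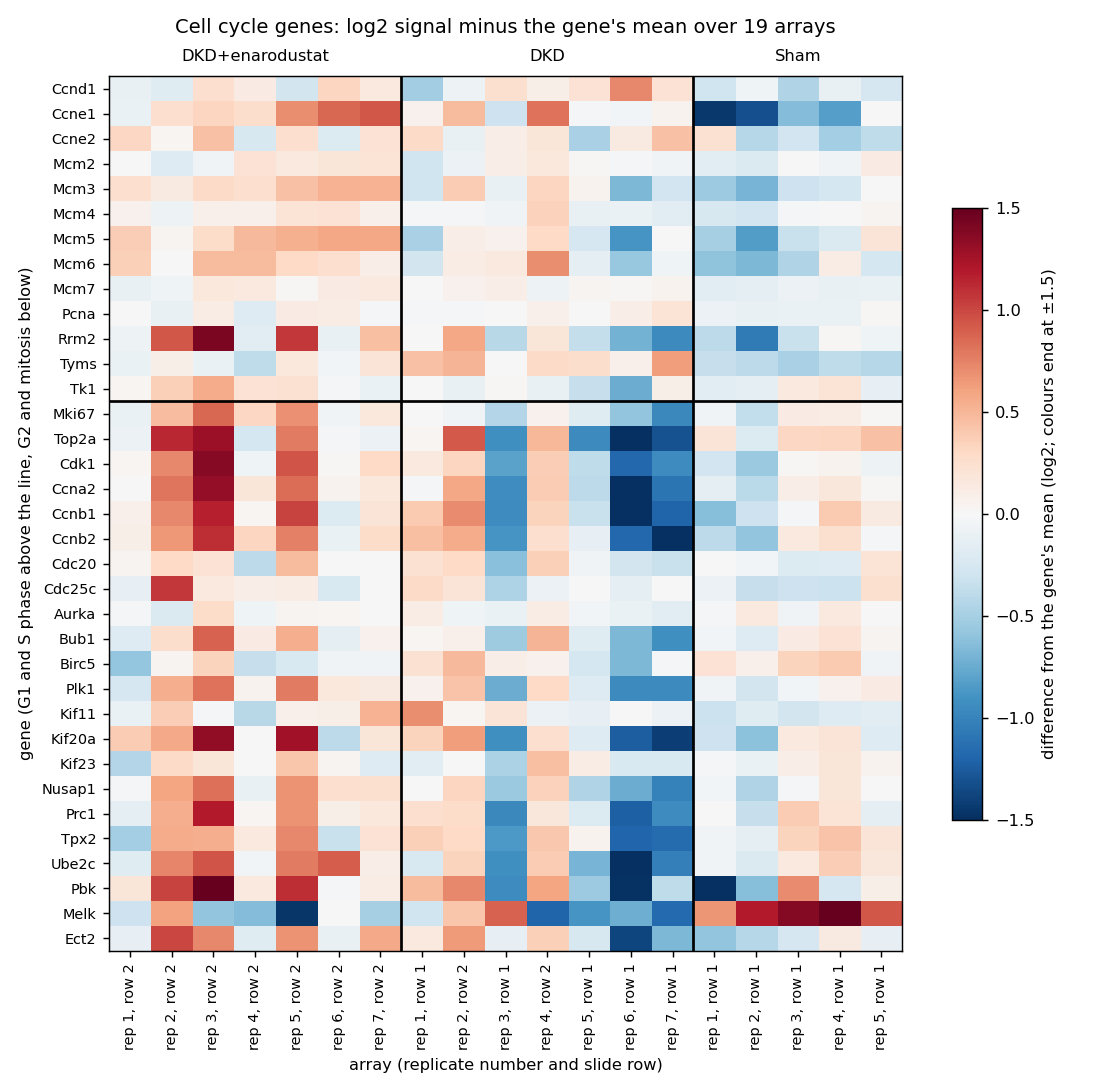
Each row is 1 of the 35 measured genes and each column 1 array, coloured by the log2 signal minus the gene's mean over the 19 arrays; labels under the columns give the replicate and the slide row. DKD+enarodustat replicate 3 had the highest value of all arrays for 14 of the 22 G2 and mitosis genes (4.61% of all genes) and DKD replicate 6 the lowest for 10 (2.25% of all genes), while Melk ran apart from the others.

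The first question is whether diabetes changed these genes. In DKD against Sham, 2 G1 and S phase genes rose, Tyms and Ccne1, and 1 G2 and mitosis gene fell, Melk. The other 32 members did not pass the adjusted p of 0.05. Over all genes, 17.1% passed, 8.02% higher and 9.07% lower, so that 3 of 35 members is below that background. The median difference (log2) was 0.17 over the 13 G1 and S phase genes and -0.23 over the 22 G2 and mitosis genes, beside -0.02 over all genes tested. The G2 and mitosis median was nearer 0 in other settings, at -0.0606 on the authors' deposited table, -0.11 with normexp and quantile normalization and -0.0760 with the replicate block. Differences were above 0 for 12 of 13 and for 4 of 22, where 46.9% of all genes were above 0.

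Tyms encodes thymidylate synthase, which makes the thymidine nucleotide for DNA. Its level was lowest at -3.15, with a median of -2.82 and a highest value of -2.58, in DKD+enarodustat, and lowest at -2.78, with a median of -2.49 and a highest value of -2.15, in DKD. The 5 Sham arrays lay at -3.13, -3.18, -3.26, -3.15 and -3.20. All 7 DKD arrays lay above all Sham arrays, which 4.85% of all genes did. Of the members Mcm7 and Kif11 did so too, without passing the test, and none had all DKD arrays below all Sham arrays, as 5.81% of all genes did. Tyms was 1.65-fold higher in DKD than in Sham, a difference of 0.72 ± 0.11 on the log2 scale (SE, limma, adjusted p = 0.000204). Its probe lies at chr9:112605733-112605792 of rn4, on the minus strand, per the file headers.

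Ccne1 encodes cyclin E1, the partner of CDK2 at the entry into S phase. It ran between -4.90 and -3.87 with a median of -4.48 in DKD+enarodustat, and between -5.11 and -3.99 with a median of -4.74 in DKD. The Sham arrays lay at -6.24, -6.12, -5.45, -5.62 and -4.80, so that 1 Sham array, replicate 5, reached into the DKD range. Ccne1 was 1.99-fold higher in DKD than in Sham (log2 difference 1.00 ± 0.25, SE, limma, adjusted p = 0.00872). Within slide row 1, with 5 DKD and 5 Sham arrays, the difference was 0.80 ± 0.25 and its limma adjusted p was 0.0635. The difference was 1.65 on slide 1, 0.98 on slide 2 and 0.0023 on slide 3, whose only Sham array was replicate 5.

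Melk encodes a kinase of dividing and stem-like cells. It ran between -4.51 and -2.45 with a median of -3.56 in DKD+enarodustat and between -4.25 and -2.17 with a median of -3.79 in DKD. The Sham arrays were the highest, at -2.39, -1.87, -1.68, -1.35 and -2.13, and DKD replicate 3 alone of the DKD arrays reached them. Melk was 3.02-fold lower in DKD than in Sham (log2 difference -1.60 ± 0.37, SE, limma, adjusted p = 0.0058), and -1.61 ± 0.37 within slide row 1 (adjusted p = 0.0195). It did not follow the other mitosis genes from array to array: DKD+enarodustat replicate 5, among the highest arrays for those genes, had the lowest Melk of all 19 arrays. Melk was measured by 1 probe, at chr5:60847783-60847842 of rn4, plus strand.

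The remaining G1 and S phase genes did not pass in DKD against Sham. Ccnd1, cyclin D1 of the G1 phase, averaged 1.88 ± 0.37 in DKD and 1.52 ± 0.15 in Sham (SD, n = 7 and 5), a log2 difference of 0.36 (limma, adjusted p = 0.137), and passed without DKD replicate 1. Its levels ran between 1.48 and 2.08 in DKD+enarodustat and between 1.24 and 2.47 in DKD, around Sham values between 1.30 and 1.69. Pcna, the sliding clamp of the replication fork, ran between -0.63 and -0.31 in DKD+enarodustat and between -0.47 and -0.23 in DKD, with Sham at -0.53, -0.54, -0.53, -0.54 and -0.42. All groups overlapped in both genes. Pcna differed between DKD and Sham by 0.12 (limma, adjusted p = 0.218). The 6 MCM helicase genes differed by 0.03 (Mcm2) to 0.36 (Mcm6). Mcm6 passed with slide as a block, where 22.5% of all genes passed, and with the replicate number as a block, where 18.8% did. Rrm2, a subunit of ribonucleotide reductase, differed by 0.13 ± 0.31 (SE).

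**Figure D2:**
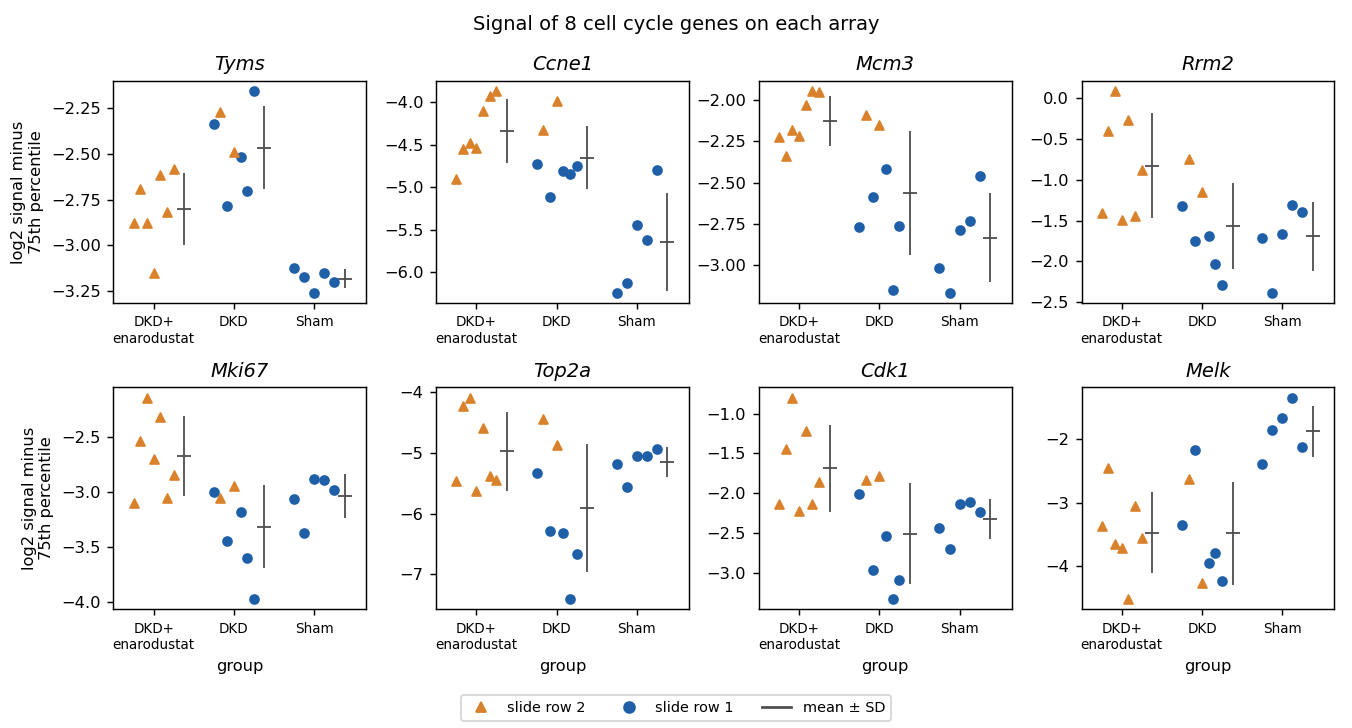
Log2 signal minus the array's 75th percentile (vertical axis) for 8 members on each array, by group, with slide rows as triangles (row 2) and circles (row 1) and the group mean ± SD as a bar. Tyms in all 7 DKD arrays lies above all Sham arrays, the mean of Melk is highest in Sham, and Top2a in DKD spans -7.41 to -4.44.

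In the G2 and mitosis genes the DKD arrays were spread widely around the narrow Sham range. Top2a, the topoisomerase that untangles chromosomes before division, ran between -7.41 and -4.44 with a median of -6.28 in DKD, and the Sham arrays lay at -5.17, -5.56, -5.06, -5.04 and -4.93. Cdk1, the kinase that starts mitosis, ran between -3.33 and -1.79 in DKD and between -2.71 and -2.11 in Sham. Ccnb1, its partner cyclin B1, ran between -6.65 and -4.44 in DKD and between -5.78 and -4.75 in Sham. In all 3 genes DKD arrays lay both above and below every Sham array.

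The median SD of a G2 and mitosis gene was 0.44 in DKD+enarodustat, 0.65 in DKD and 0.24 in Sham, beside 0.26, 0.24 and 0.20 over all genes. The SD was larger in DKD than in Sham for 20 of 22 of them and for 12 of 13 G1 and S phase genes, as it was for 59.7% of all genes. In DKD+enarodustat it was larger than in Sham for 21 of 22 and 7 of 13, beside 62.5% of all genes. The spread followed the array: the array's median over the 22 genes, as a difference from each gene's mean, was -1.07 in DKD replicate 6, -0.95 in replicate 7, -0.68 in replicate 3 and -0.20 in replicate 5. It was 0.33 and 0.34 in DKD replicates 2 and 4 of slide row 2, and 0.15 in DKD replicate 1. Sham arrays lay between -0.29 and 0.18.

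**Figure D3:**
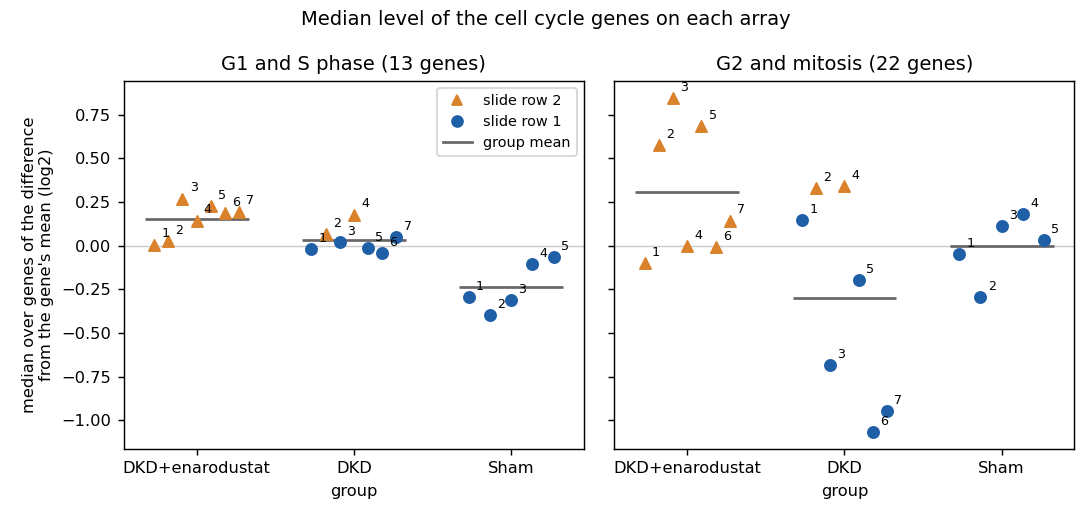
Each point is 1 array: the median over the genes of a phase of the log2 signal minus the gene's mean over 19 arrays, by group, numbered by replicate, with slide row 2 as triangles and row 1 as circles and the group mean as a line. The G2 and mitosis medians of DKD run from -1.07 to 0.34, with the 2 row 2 arrays at the top, while the G1 and S phase medians of all arrays lie between -0.40 and 0.27.

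The DKD arrays were also compared between slide rows, a comparison added after the data were seen. Of the 5 row 1 arrays 3 lay on slide 3, which held no DKD array of row 2. The 2 DKD arrays of row 2 against the 5 of row 1 differed by a median of 0.90 (log2) over the 22 G2 and mitosis genes and 0.12 over the 13 G1 and S phase genes, beside -0.06 over all genes. Both row 2 arrays lay above all row 1 arrays for 10 of 22 and 5 of 13, as 4.42% of all genes did, and 6.08% of all genes had both below. Top2a differed most, by 1.75 ± 0.47, followed by Ccna2 at 1.29 ± 0.38, Ccnb1 at 1.24 ± 0.45 and Ube2c at 1.23 ± 0.33 (SE). No member passed (limma, smallest adjusted p = 0.308, 0.033% of all genes passed), while 15 of 22 and 5 of 13 had an unadjusted p under 0.05, as 6.85% of all genes did. In other settings fewer G2 and mitosis genes did. They were 10 of 22 with slide as a block (2661 of 24217 genes) and 12 of 22 with quantile normalization (1908), also after normexp (2284). On the authors' deposited table they were 8 of 21 (2422 of 18356 genes), with a median of 0.24. Of the G1 and S phase genes 1 to 5 of 13 did. Sizes and their order also depended on the processing. Top2a differed by 0.47 ± 0.15 after normexp and quantile normalization and by 0.23 ± 0.12 on the authors' table (SE). Rrm2 differed most in these 2 settings, by 0.73 ± 0.34 and 0.63 ± 0.31 (SE).

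Within slide row 1, 4 of 35 members passed in DKD against Sham, below the 13.2% of all genes that passed in either direction. Of the 24217 genes 1486 were higher and 1704 lower. In that comparison of 5 DKD with 5 Sham arrays the median over G2 and mitosis genes was -0.49. Top2a (-1.25 ± 0.32, SE, limma, adjusted p = 0.033) and Ube2c (-0.96 ± 0.22, adjusted p = 0.0191) fell beside Melk, and Tyms rose. Ube2c encodes the ubiquitin-conjugating enzyme of the anaphase-promoting complex. With slide row as a covariate over all 19 arrays the differences are those of row 1 by design, since all Sham arrays lay there. Only the spread came from more arrays, so that fit is no second estimate. In it Top2a and Ube2c fell beside Melk (adjusted p = 0.0268 for Top2a and 0.016 for Ube2c). Tyms and Ccne1 rose (0.00114 and 0.0367, limma), with 13% of all genes called. Within slides the G2 and mitosis median was 0.43 on slide 1, -0.30 on slide 2 and -0.74 on slide 3, with the DKD row 2 arrays on slides 1 and 2. The G1 and S phase medians were 0.25, 0.39 and 0.0023.

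The second question is whether enarodustat changed these genes in diabetic rats. No member passed in DKD+enarodustat against DKD, where 2% of all genes did (1.07% higher and 0.933% lower). Groups overlapped for every member, as they did for nearly all genes. Only 0.685% of all genes had all DKD+enarodustat arrays above all DKD arrays, and 0.566% had them below. At an unadjusted p under 0.05, 12 of 22 G2 and mitosis genes and 4 of 13 G1 and S phase genes were higher, as 4.58% of all genes were, and Tyms alone was lower. Differences were above 0 for 20 of 22 and 10 of 13, where 44.3% of all genes were above 0. The median difference was 0.63 for G2 and mitosis and 0.11 for G1 and S phase, beside -0.02 for all genes.

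Mki67, the Ki-67 protein used to stain dividing cells, came nearest to the threshold. It ran between -3.10 and -2.14 with a median of -2.70 in DKD+enarodustat and between -3.98 and -2.95 with a median of -3.18 in DKD, and the Sham arrays lay at -3.06, -3.37, -2.88, -2.89 and -2.99. The difference from DKD was 0.65 ± 0.17 (SE, limma, adjusted p = 0.0664), and the gene's 3 other probes gave 0.67 to 0.86. With the replicate number as a block it passed, as the only member (2.66% of all genes passed), with slide as a block it passed beside Tyms (adjusted p = 0.0414 and 0.046, limma, 3.78% of all genes), and it passed without DKD+enarodustat replicate 1 or 6.

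Ube2c was 0.99 ± 0.28 higher in DKD+enarodustat than in DKD (SE, limma, adjusted p = 0.0794) and passed without DKD replicate 2 or 4, the 2 DKD arrays of slide row 2. Top2a ran between -5.63 and -4.08 in DKD+enarodustat with a median of -5.38, Cdk1 between -2.22 and -0.80 with a median of -1.86, and Ccnb1 between -5.34 and -3.98 with a median of -4.95. All 3 ranges overlapped those of DKD and of Sham given above. Top2a differed from DKD by 0.93 ± 0.39, Ccna2, the cyclin A2 of S phase and G2, by 0.92 ± 0.31 and Cdk1 by 0.82 ± 0.27 (SE, limma, adjusted p = 0.289, 0.146 and 0.145). The cyclins Ccnb1 and Ccnb2 differed by 0.79 and 0.80. Bub1, Ect2, Pbk, Plk1 and Tpx2 differed by 0.46, 0.55, 0.85, 0.61 and 0.49. Of the spindle genes, Kif20a, Prc1 and Nusap1 differed by 0.84, 0.74 and 0.65, Kif11 by -0.01 and Kif23 by 0.11. Aurka, Birc5, Cdc20, Cdc25c and Melk lay between -0.11 and 0.18.

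Among the G1 and S phase genes the difference from DKD was 0.57 ± 0.17 for Mcm5, 0.43 ± 0.15 for Mcm3 and 0.74 ± 0.28 for Rrm2 (SE, limma, adjusted p = 0.107, 0.156 and 0.229). Tk1, thymidine kinase of the salvage pathway, differed by 0.35, Ccne1 by 0.31 and Mcm6 by 0.29. Tyms went the other way, by -0.34 ± 0.10 (SE, limma, adjusted p = 0.102). Ccnd1, Ccne2, Mcm2, Mcm4, Mcm7 and Pcna lay between -0.09 and 0.11.

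**Figure D4:**
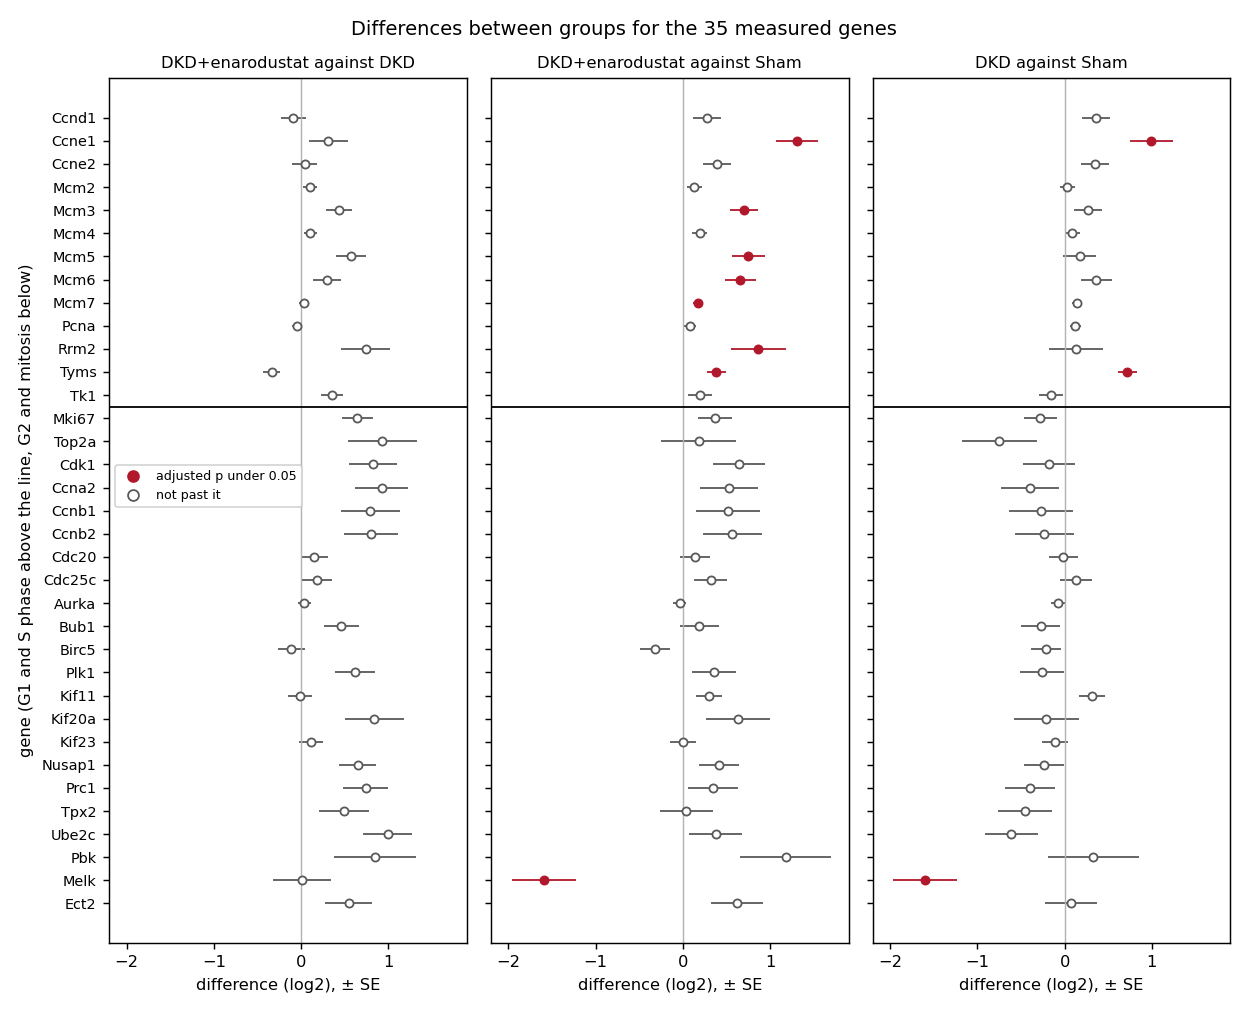
Log2 difference ± SE (horizontal axis) of each of the 35 genes in the 3 comparisons, G1 and S phase above the line and G2 and mitosis below it, with filled points past the adjusted p of 0.05. In DKD+enarodustat against DKD 20 of 22 G2 and mitosis genes lie above 0 and no gene is past the threshold.

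Values within the slide rows differed from these. Within slide row 2, with 7 DKD+enarodustat and 2 DKD arrays, the medians were -0.02 for G2 and mitosis and 0.03 for G1 and S phase, and no member passed (limma, smallest adjusted p = 0.728, for Tyms), where 0.0496% of all genes passed. In that row the difference was 0.33 ± 0.25 for Mki67, 0.11 ± 0.33 for Ube2c, -0.32 ± 0.45 for Top2a and 0.12 ± 0.37 for Cdk1 (SE). With only the 5 row 1 arrays of DKD, which leaves each group in a row of its own, 9 members rose in DKD+enarodustat: Ccna2, Cdk1, Mcm3, Mcm5, Mki67, Nusap1, Plk1, Top2a and Ube2c, while 2.11% of all genes passed. Their differences included 1.43 ± 0.33 for Top2a and 1.34 ± 0.24 for Ube2c (SE, limma, adjusted p = 0.037 and 0.00731). The G2 and mitosis median was -0.0049 on slide 1, 0.62 on slide 2 and 1.08 on slide 3, the slide on which all 3 DKD arrays lay in row 1. In the limma test of group by slide, 0 of 35 members and 0% of all genes passed the adjusted threshold, and 1 member, Ccne1, and 5.02% of all genes had an unadjusted p under 0.05. With 1 to 3 arrays per group and slide, this does not show that the differences were alike.

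When limma was run on the authors' deposited table of log2 expression, which holds 34 of the 35 members, 9 members passed in this comparison, beside 9.67% of its genes. Ccna2, Cdk1, Mcm3, Mcm5, Mki67, Nusap1, Tk1 and Ube2c rose and Tyms fell there, with medians of 0.25 for G2 and mitosis and 0.09 for G1 and S phase. With slide row as a covariate none of them passed on that table.

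The third comparison sets the treated diabetic rats against Sham. Against Sham, DKD+enarodustat had 7 of 13 G1 and S phase genes that rose, where 10% of all genes rose. Melk fell, where 16% fell and 26.1% of all genes passed in either direction. The genes that rose were Ccne1, Mcm3, Mcm5, Mcm6, Mcm7, Rrm2 and Tyms, and no G2 and mitosis gene rose. All 13 G1 and S phase genes and 18 of 22 G2 and mitosis genes were above 0, where 44.5% of all genes were. The medians were 0.38 and 0.35, beside -0.04 over all genes. It shares its Sham arrays with the first comparison and its DKD+enarodustat arrays with the second, so that the 3 sets of values are not independent.

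The MCM genes encode the helicase ring that opens DNA at replication origins. Mcm3 ran between -2.34 and -1.95 with a median of -2.18 in DKD+enarodustat and between -3.15 and -2.09 in DKD, and the Sham arrays lay at -3.01, -3.17, -2.79, -2.73 and -2.46. All 7 DKD+enarodustat arrays lay above all Sham arrays, as 5.51% of all genes did; Mcm3 was the only member to do so. The difference from Sham was 0.71 ± 0.16 (SE, limma, adjusted p = 0.0035), while a dimmer probe of Mcm3 gave 0.13.

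Mcm5 ran between -2.79 and -2.25 in DKD+enarodustat, with Sham at -3.33, -3.67, -3.16, -3.04 and -2.64, a difference of 0.75 ± 0.19 (SE, limma, adjusted p = 0.00725). Mcm6 ran between -5.72 and -5.25 in DKD+enarodustat, with Sham at -6.33, -6.39, -6.18, -5.61 and -5.99, a difference of 0.66 ± 0.18 (SE, limma, adjusted p = 0.00991). In each of these a single Sham array, replicate 5 for Mcm5 and replicate 4 for Mcm6, reached the DKD+enarodustat range. Mcm7 differed by only 0.18 ± 0.06 (SE, limma, adjusted p = 0.0285), with -0.91 to -0.64 in DKD+enarodustat and -0.96 to -0.88 in Sham. Mcm2 and Mcm4, by 0.13 and 0.19, did not pass.

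Ccne1 was 1.31 ± 0.25 higher than in Sham, a 2.47-fold rise (SE, limma, adjusted p = 0.000754), and Tyms 0.38 ± 0.11 (adjusted p = 0.0155, limma), with Tyms in DKD+enarodustat between its DKD and Sham means. Rrm2 ran between -1.49 and 0.09 with a median of -0.88 in DKD+enarodustat, between -2.28 and -0.75 with a median of -1.68 in DKD, and at -1.72, -2.38, -1.66, -1.31 and -1.39 in Sham. DKD+enarodustat replicates 2, 3, 5 and 7 lay above all Sham arrays and replicates 1, 4 and 6 among them. Rrm2 rose by 0.87 ± 0.31 (SE, limma, adjusted p = 0.0475), a call lost in 12 of 19 fits that left out 1 array. Melk fell by 1.59 (SE 0.37, limma, adjusted p = 0.00392), with all 7 DKD+enarodustat arrays below all Sham arrays, as for 8.87% of all genes.

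The calls of Rrm2 and Mcm7 depended on single arrays. Rrm2 was not called without Sham replicates 1, 2, 3 or 5, DKD replicates 1, 3, 5 or 6, or DKD+enarodustat replicates 2, 3, 5 or 7. Mcm7 was not called without Sham replicates 1, 2 or 4 or DKD+enarodustat replicates 3, 6 or 7. Ccne2 passed without Sham replicate 1 and Mcm4 without DKD replicate 4. The other 6 calls held in all 19 such fits. Mcm6 was not called with quantile normalization, alone or after normexp, and Mcm7 not with quantile normalization alone. Neither Mcm7 nor Rrm2 was called with median centring or in a fit of only the groups compared. With the mean over a gene's probes Mcm3 and Rrm2 were not called. With the replicate number as a block Ect2 and Mki67 also rose and Mcm7 was not called, where 29.5% of all genes passed. Without the DKD arrays of row 2 the same 8 members passed (26% of all genes), and 13 members did in limma on the authors' deposited table (44.9% of its genes).

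**Figure D5:**
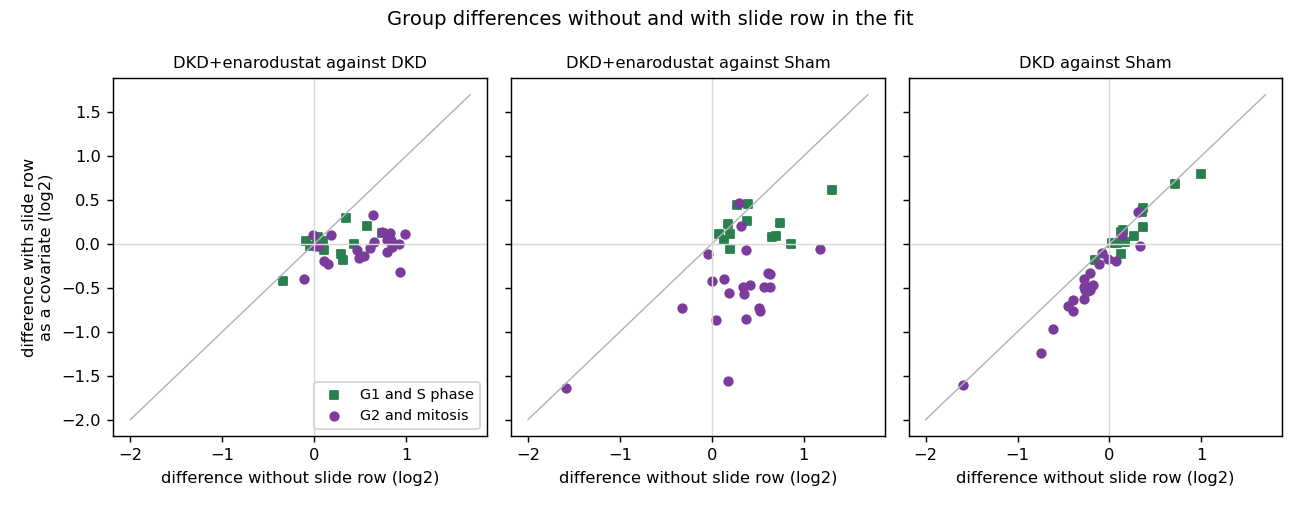
Each point is 1 of the 35 genes: its log2 difference without slide row in the fit (horizontal axis) and with slide row as a covariate (vertical axis), in the 3 comparisons, squares for G1 and S phase and circles for G2 and mitosis, with the line of equal values. With the covariate the G2 and mitosis median is -0.02 in DKD+enarodustat against DKD and -0.49 in the other 2 comparisons.

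With slide row as a covariate, which only the DKD arrays can estimate, none of the 35 members was called in DKD+enarodustat against Sham, where 4.26% of all genes were. The G1 and S phase median was 0.11 and that of G2 and mitosis -0.49. In that fit Ccne1 differed by 0.62 ± 0.39 (adjusted p = 0.457), Mcm5 by 0.23 ± 0.31 (0.754), Mcm3 by 0.09 ± 0.22 (0.875) and Tyms by 0.26 ± 0.19 (0.538), and Melk by -1.64 ± 0.66 (SE, limma, adjusted p = 0.196). Standard errors were larger than without the covariate, since 2 DKD arrays carry the row. Within slides the G1 and S phase median was 0.34, 0.47 and 0.38 and that of G2 and mitosis 0.40, 0.32 and 0.24 on slides 1, 2 and 3, with all Sham arrays in the other row throughout.

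The wider machinery was read from lists of other genes of these pathways. Of 30 other replication genes measured, 6 rose and 3 fell in DKD+enarodustat against Sham, none was called in DKD+enarodustat against DKD, and 1 rose and 1 fell in DKD against Sham. Over all genes 10% rose and 16% fell in DKD+enarodustat and 8.02% and 9.07% in DKD, so that the counts that fell, and both in DKD, were below the background. Chaf1b, of the complex that lays histones on new DNA, was 0.87 ± 0.15 higher in DKD+enarodustat than in Sham (SE, limma, adjusted p = 0.000398) and 0.46 ± 0.15 higher in DKD than in Sham (adjusted p = 0.0463). Gins4 of the replicative helicase and Prim1, the primase, rose by 0.41 and 0.48 in DKD+enarodustat against Sham. Pola1, the polymerase that starts new strands, was well above background on 0 of 7 DKD+enarodustat, 3 of 7 DKD and 5 of 5 Sham arrays. It reached the filter of 5 arrays only through its 5 Sham arrays, the group where it was highest. Its calls against Sham, counted among the genes that fell, are therefore not read as a result. Its level was at least 1.93-fold lower in DKD+enarodustat than in Sham. All DKD arrays lay below all Sham arrays as well, and no fold is given there because 4 of the 7 were not well above background.

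Of 42 other mitosis genes measured, 8 rose and 1 fell in DKD+enarodustat against Sham, none was called against DKD, and 3 rose and 2 fell in DKD against Sham. Of all genes 10% rose and 16% fell in the first of these and 8.02% and 9.07% in the last, so that the share that rose in DKD+enarodustat alone was above the background. Their median differences were 0.25, 0.40 and -0.16 in that order of comparisons. Kifc1, a spindle motor, ran between -3.03 and -2.14 in DKD+enarodustat and between -3.83 and -2.27 in DKD, and the Sham arrays lay at -1.28, -1.94, -0.94, -0.92 and -1.39. It was below all Sham arrays in both diabetic groups, with differences of -1.30 ± 0.24 and -1.42 ± 0.24 (SE, limma, adjusted p = 0.000618 and 0.000476). Cks2, a small partner of the CDKs, and Dlgap5, a spindle protein, rose by 1.27 and 0.80 in DKD+enarodustat against Sham. Cenpk and Cenpm of the centromere rose in DKD by 0.49 and 0.72 and Anln, of the contractile ring, fell by 0.39 against Sham (limma, adjusted p = 0.00543, 0.0078 and 0.0392), and Cenpk rose by 0.61 in DKD+enarodustat. Cenpm, outside the 4 genes named for DKD+enarodustat against Sham, averaged -3.79 in DKD+enarodustat and -4.59 in Sham.

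Among brakes on the cycle, Cdkn1a, Ccng1 and Btg2 rose in both diabetic groups against Sham. Cdkn1a, the CDK inhibitor p21, ran between 0.63 and 1.60 with a median of 1.12 in DKD+enarodustat and between -0.05 and 1.60 with a median of 1.32 in DKD, and the Sham arrays lay at -1.64, -2.04, -2.37, -2.46 and -2.69. All arrays of both diabetic groups lay above all Sham arrays, and DKD+enarodustat differed from DKD by -0.02 ± 0.25 (SE, limma, adjusted p = 0.994). Against Sham the difference was 3.31 ± 0.27 in DKD+enarodustat and 3.33 ± 0.27 in DKD. Of the 6 CDK inhibitors measured Cdkn2d also rose in DKD+enarodustat against Sham, by 0.24 (limma, adjusted p = 0.0203). Against Sham 2 of the 6 thus rose in DKD+enarodustat and 1 in DKD, where 10% and 8.02% of all genes rose.

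Of 11 other G1 cyclins, CDKs and brakes measured, 2 rose and 2 fell in DKD+enarodustat against Sham, where 10% of all genes rose and 16% fell. In DKD against Sham 3 rose and none fell, beside 8.02% and 9.07% of all genes. Btg2, an antiproliferative p53 target, was the one called in DKD+enarodustat against DKD, where 1.07% of all genes rose. It ran between -0.82 and 0.04 in DKD+enarodustat, between -1.40 and -0.94 in DKD and between -1.86 and -1.37 in Sham, and rose by 0.68 ± 0.12 against DKD (SE, limma, adjusted p = 0.0038), with no overlap, as for 0.685% of all genes. Btg2 also rose against Sham in both groups, with means of -0.44 in DKD+enarodustat, -1.12 in DKD and -1.61 in Sham. Ccng1, cyclin G1, another p53 target, rose by 1.27 in DKD+enarodustat and by 1.49 in DKD against Sham, and Ccng2 by 0.41 in DKD. Cdk4, the kinase of cyclin D, and Gas1, a growth arrest gene, fell by 0.32 and 0.31 in DKD+enarodustat against Sham (limma, adjusted p = 0.00111 and 0.0433).

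Of 18 cell cycle transcription factors and DREAM or retinoblastoma proteins measured, 2 rose and 2 fell in DKD+enarodustat against Sham, 1 fell against DKD, and 2 rose and 1 fell in DKD against Sham. The counts against Sham are near the shares of all genes, 10% higher and 16% lower in DKD+enarodustat and 8.02% and 9.07% in DKD. The 1 of 18 that fell against DKD stands beside 0.933% of all genes lower in that comparison. Myc ran between -3.36 and -1.28 in DKD+enarodustat and between -2.56 and -1.21 in DKD, and the Sham arrays lay at -3.03, -3.18, -3.43, -3.13 and -3.20. It rose by 1.40 ± 0.28 in DKD (SE, limma, adjusted p = 0.00214) and by 0.95 ± 0.28 in DKD+enarodustat (adjusted p = 0.0183) against Sham. Rb1, the retinoblastoma protein, ran between -1.45 and -1.13 in DKD+enarodustat and between -1.17 and -0.59 in DKD, a fall of 0.38 (SE 0.08, limma, adjusted p = 0.0168). Lin52 of the DREAM complex fell by 0.44 in DKD+enarodustat and by 0.24 in DKD, Rbl2 fell by 0.26 and Mybl2, or B-Myb, rose by 0.55 in DKD+enarodustat, and E2f6 rose by 0.29 in DKD, each against Sham.

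With slide row as a covariate, Rb1 (adjusted p = 0.642) and Btg2 (adjusted p = 0.3) were no longer called in DKD+enarodustat against DKD. Of the genes named from these lists, those still called in DKD+enarodustat against Sham were Kifc1, Cdkn1a, Ccng1 and Btg2 (limma, adjusted p = 0.0331, 0.00107, 0.00443 and 0.0196). In DKD against Sham the calls lost were Chaf1b and Lin52 (0.17 and 0.103, limma).

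Markers of other cells were read beside these genes, and none was called in DKD+enarodustat against DKD. Of 16 leukocyte markers 4 rose in DKD+enarodustat and 3 in DKD, both against Sham, where 10% and 8.02% of all genes rose. Their summed signal, in units of the array's 75th percentile, was 38.3 to 76.0 in DKD+enarodustat, 32.6 to 51.2 in DKD and 28.9 to 36.7 in Sham. That of 8 adipocyte markers was 27.1 to 52.4, 32.9 to 64.2 and 15.6 to 24.2. Against Sham 3 of the 8 rose in DKD+enarodustat and 4 in DKD, beside the same shares of all genes. That of 8 erythroid transcripts was 20.9 to 260.9, 19.7 to 127.5 and 27.3 to 49.9, with none called in any comparison.

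The 2 DKD arrays of row 2 had the highest erythroid sums of that group, 104.0 and 127.5, where the row 1 arrays had 19.7 to 56.5. Their adipocyte sums were 45.2 and 64.2, where row 1 had 32.9 to 46.1, and 54.7% and 57.6% of their probes were above background, where row 1 had 62.5% to 67.2%. The part of these cells and of the rows in the differences of the cell cycle genes was not tested. Of the 8 endothelial markers none was called in any comparison.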

How the data were processed

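Cortex RNA of 19 rats was measured on single-colour Agilent arrays, 1 array per rat. Each array's intensity file was deposited as scanner output; per the file headers it was made with Feature Extraction 11.5.1.1 (Agilent), and probe positions are on rn4. A table of log2 values for 22739 probes was deposited by the authors; its processing is not given in the sources used here, and it correlated at 0.9973 to 0.9993 with normexp and quantile normalized values.

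The log2 of the processed signal minus each array's 75th percentile was used. Control spots and outlier flags were left out, spots of a probe were averaged, and the brightest probe well above background on at least 5 arrays stood for a gene. RefSeq (GRCr8) named 21109 probes by accession, 1977 took the name of a probe sharing their file name, and 22512 kept the file's name. One limma 3.58.1 fit (R 4.3.3) held all 19 arrays and 24217 genes, with 16 residual degrees of freedom, two-sided tests, Benjamini-Hochberg adjustment per comparison and a threshold of 0.05. The procedure was tested on simulated data. The number of arrays limits the precision.

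Array values were given for each member past the threshold and for a set of 8 (Mki67, Top2a, Cdk1, Ccnb1, Pcna, Mcm6, Rrm2 and Ccnd1), and up to 4 genes with the smallest adjusted p per wider list and comparison were named, with Cdkn1a always; other members are given by their differences. Members and lists were chosen with earlier results of these data known. Replicate numbers pair arrays through the shared slide: the deviations of all 17 same-numbered pairs correlated above 0.1 (0.13 to 0.59), against a median of -0.21 across slides. Their median was 0.23, beside 0.25 for the 22 pairs of the same slide with other numbers. These values show no pairing by number beyond the slide. The alternatives, 39 different settings of which the fits within a slide row apply to 1 comparison each, covered background correction, scaling, probe filters, slide and row terms, the replicate block and leaving out each array.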

Additional observations from a re-analysis of the deposited data

Results flagged for a closer look

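Pcna in Sham replicate 5, at -0.42, stood apart from the other Sham arrays, which lay at -0.53, -0.54, -0.53 and -0.54. Its gap to the nearest array was 0.889 of the group's range, above the critical value of 0.71 for 5 samples. Of 48 groups looked at, chance alone would mark about 1 in 20.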

How the results depend on the processing

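With slide row as a covariate, 5 members passed in DKD against Sham, as without the DKD arrays of row 2 (5). Both fits give the same differences by design, since all Sham arrays lay in row 1. Against Sham, in DKD+enarodustat, no member (0) and 1031 genes passed, with medians of 0.11 (G1 and S phase) and -0.49 (G2 and mitosis). In DKD+enarodustat against DKD 84 genes passed, with a G2 and mitosis median of -0.0228, and 9 members passed without the DKD arrays of row 2. Within row 2, 12 genes passed. The median there, -0.0228, equals that of the covariate fit by design, since all DKD+enarodustat arrays lay in row 2. With slide as a block and row as a covariate, DKD+enarodustat against DKD had 242 genes and medians of -0.0476 and 0.0540, and against Sham 0 members, 1431 genes and medians of 0.15 and -0.40. There Mcm3 reversed, to -0.0683. The cause was not tested.

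Limma on the authors' table called 9 members and 1775 genes in DKD+enarodustat against DKD and 13 members against Sham, with a G1 and S phase median of 0.21 against Sham. In DKD against Sham the G2 and mitosis median was -0.0606 on that table, -0.11 with normexp and quantile normalization and -0.0760 with the replicate block. With the row covariate it gave a median of 0.0668 (G2 and mitosis) and 265 genes against DKD, 0.0689 (G1 and S phase), 0 members and 1609 genes against Sham, and 0.0597 (G1 and S phase) in DKD against Sham. Normexp with quantile normalization called 1 member against DKD and gave a G1 and S phase median of 0.19 against Sham. In DKD+enarodustat against DKD, slide as a block called 2 members and 915 genes, the replicate block 1 member, median centring 291 genes, no filter 284 and a fit of only those groups 276. No filter called 10744 genes in DKD+enarodustat against Sham.

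Within slides 1, 2 and 3, which hold fewer arrays, 0, 2 and 142 genes passed in DKD against Sham, 1, 0 and 0 in DKD+enarodustat against DKD, and 14, 46 and 338 against Sham, with 0 members in each. In DKD against Sham the G2 and mitosis median was 0.43 on slide 1 and -0.74 on slide 3, and the G1 and S phase median 0.39 on slide 2 and 0.0023 on slide 3. In DKD+enarodustat against DKD they were -0.0049 (G2 and mitosis, slide 1) and 0.29 (G1 and S phase, slide 3).

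Leaving out 1 array gave a G1 and S phase median of 0.14 to 0.31 (without Sham replicate 5) in DKD against Sham, where the G2 and mitosis median was -0.10 without DKD replicate 6. For DKD+enarodustat against DKD it gave 0 to 1 members and 286 (without DKD replicate 6) to 497 genes. For the 14 members given by array, 1469 values kept direction and side of the threshold, 26 passed it newly, 86 lost it and 1 reversed. The replicate block changed no other call than those given.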
